A study of Homo sapiens with 6 samples.

Results

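The 9 genes described here are the sensors of double-stranded RNA IFIH1, DHX58, TLR3 and EIF2AK2, the adaptor MAVS and the transcription factors IRF3, IRF7, IRF9 and STAT2. They were followed in KHOS and U-2OS, 2 established human osteosarcoma lines, on 6 Affymetrix U133 Plus 2.0 arrays. Each line had 1 array of untransfected cells, 1 of cells given nonspecific siRNA at 40 nM and 1 of cells given siRNA against CDK11, a cyclin-dependent kinase, at 40 nM. RNA was taken 48 h after transfection with CDK11 siRNA, and the RNA of 3 flasks was pooled on each array. The siRNA was carried in with a lipid reagent while the controls were labelled as not transfected, so that an effect of the RNA and one of the reagent cannot be told apart. Members were all probe sets whose annotated gene symbol is one of the 9 genes. There were 17 such probe sets among 54675 on the array, for 8 of the 9 genes, and STAT2 was not analysed here. Of the 17 probe sets, 9 from 6 genes had a signal above 100 on at least 1 array, which is 6.64 on the log2 scale and is called the signal limit below. The question was how the levels of the sensors and of the signal carriers stood in each line before and after siRNA, in a study where interferon genes were higher on the KHOS arrays after siRNA of either kind and hardly so on those of U-2OS.

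Cells read double-stranded RNA as a sign of viral infection. IFIH1 (also called MDA5) binds long double-stranded RNA in the cytoplasm and signals through MAVS on mitochondria, DHX58 (LGP2) is a related helicase without signalling domains, TLR3 senses such RNA in endosomes, and EIF2AK2 (PKR) phosphorylates the translation factor eIF2 alpha. MAVS and TLR3 signals activate IRF3 and IRF7, which switch on interferon genes. Secreted interferon then acts through its receptor on a complex that holds STAT2 and IRF9 and binds an element of repeated GAAA letters in the promoters of interferon-stimulated genes, and several of the sensors are themselves such genes.

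Promoters of 6 members were in the RefSeq table of GRCh38.p14, each with 250 bases before the start of the gene and 50 after it. They were searched on both strands for GAAANNGAAA, whose reverse complement is TTTCNNTTTC, with overlapping matches counted. The letters were found in 3.57% of all 35116 promoters and in the promoters of IFIH1, TLR3 and EIF2AK2, but not in those windows of MAVS, IRF9 and STAT2. IFIH1 had 3 matches, which began 159, 153 and 21 bases before the start, the first pair overlapping. EIF2AK2 had 1 match that began 6 bases before the start, and TLR3 had 1 that began 4 bases before it. The stretches with a match are shown to let the sensors' promoters be compared, and that of MAVS stands for those without, with the matched letters in capitals. IFIH1 lies on the minus strand (chr2:162318810-162318859 and chr2:162318675-162318744), as does EIF2AK2 (chr2:37156971-37157040), and TLR3 (chr4:186069096-186069165) and MAVS (chr20:3846774-3846843) on the plus strand.
IFIH1, distal: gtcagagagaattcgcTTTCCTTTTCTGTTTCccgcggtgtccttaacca
IFIH1, proximal: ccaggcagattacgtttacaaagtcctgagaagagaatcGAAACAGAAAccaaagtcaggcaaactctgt
EIF2AK2: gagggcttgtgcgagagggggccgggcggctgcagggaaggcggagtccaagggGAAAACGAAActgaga
TLR3: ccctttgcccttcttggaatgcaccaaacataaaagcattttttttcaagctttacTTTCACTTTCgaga
MAVS: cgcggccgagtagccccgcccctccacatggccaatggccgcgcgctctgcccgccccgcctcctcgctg
A match is a run of letters and not a measured binding site. Among 32 interferon-stimulated genes above the signal limit with a promoter in the table, 24 (75.0%) held the letters in at least 1 promoter, and 4.38% of all genes did.

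IFIH1, EIF2AK2, MAVS and IRF9, which were above the signal limit in both lines, were lower in U-2OS than in KHOS. IRF3 and IRF7 were lower there too, but were above the limit in KHOS alone, so that the limit let them in through the line where they were high. The values below are deposited log2 signals, so that a difference of 1 is a doubling, and no level of one probe set is set against that of another. Values are given for untransfected cells, nonspecific siRNA and CDK11 siRNA, with 1 array for each, so that they carry no SD.

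IFIH1 had 3 probe sets. The brightest (219209_at) read 8.85, 10.82 and 10.40 in KHOS, against 6.99, 6.92 and 6.59 in U-2OS. All KHOS arrays lay above all U-2OS arrays, and the gap widened on both siRNA arrays. In untransfected cells IFIH1 was 3.62-fold higher in KHOS, with nonspecific siRNA 14.9-fold and with CDK11 siRNA 14.0-fold. The dimmer 216020_at read 4.04, 5.92 and 6.75 in KHOS, against 2.62, 3.06 and 2.64 in U-2OS, with the same order of lines. On 1555464_at, which stayed below the signal limit, IFIH1 read 3.35, 4.19 and 6.58 in KHOS, against 2.80, 2.92 and 2.85 in U-2OS. The 3 probe sets shared higher values on both siRNA arrays of KHOS, but the brightest peaked with nonspecific siRNA and the other two with CDK11 siRNA.

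EIF2AK2 was bright in both lines. Its brightest probe set (213294_at) read 11.02, 11.45 and 11.41 in KHOS, against 9.74, 9.74 and 9.95 in U-2OS. The lines did not overlap, and EIF2AK2 was 2.42-fold higher in untransfected KHOS cells. The other probe set above the limit (204211_x_at) read 10.81, 11.25 and 11.61 in KHOS, against 9.81, 9.77 and 9.94 in U-2OS. The dim 242898_at ranged from 6.27 to 6.51 in KHOS and from 5.31 to 5.38 in U-2OS, again without overlap.

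TLR3 and DHX58 were dim everywhere. TLR3 had 3 probe sets, all below the signal limit on all arrays. The brightest (206271_at) read 2.83, 3.32 and 6.17 in KHOS, against 2.74, 2.81 and 2.79 in U-2OS, so that 1 array, KHOS with CDK11 siRNA, stood apart. A second TLR3 probe set (239587_at) read 3.11, 3.98 and 3.43 in KHOS, against 2.37 to 2.40 in U-2OS, with its highest value on another array. The last (242667_at) lay between 3.01 and 3.12 on all arrays, and its lines overlapped. DHX58 (219364_at) read 2.21, 2.21 and 2.34 in KHOS, against 2.18, 2.20 and 2.20 in U-2OS. These values were below the median of all probe sets on an array, which was 2.92 to 2.98, so that DHX58 was not detectable by this probe set.

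MAVS, the adaptor of the cytoplasmic sensors, differed between the lines but hardly between transfections. Its brightest probe set (226495_at) read 9.01, 9.01 and 9.14 in KHOS, against 7.59, 7.62 and 7.28 in U-2OS, a 2.68-fold difference in untransfected cells. On 220305_at MAVS read 8.55, 8.44 and 8.70 in KHOS, against 7.06, 7.04 and 7.14 in U-2OS. Both showed U-2OS below KHOS on every array. The dim MAVS probe sets went further apart with transfection, since 231829_at read 4.20, 4.61 and 5.82 in KHOS, against 3.22 to 3.38 in U-2OS, and 229741_at read 4.86, 5.42 and 5.45 in KHOS, against 4.18 to 4.46 in U-2OS. Like 1555464_at of IFIH1 and 206271_at of TLR3, 231829_at had its highest value on the KHOS array with CDK11 siRNA.

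**Figure D1:**
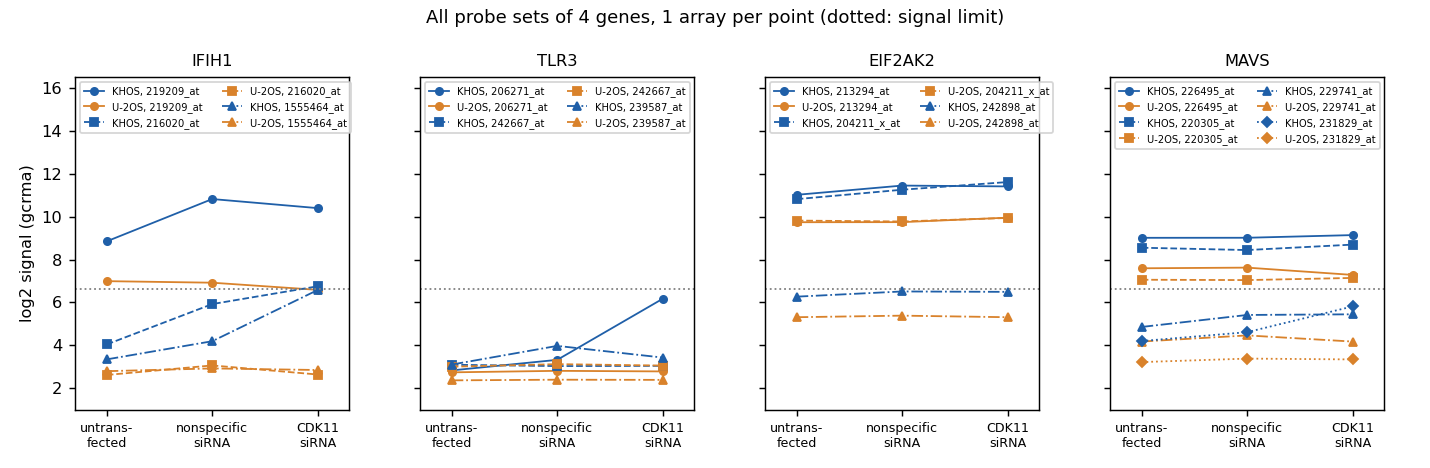
Log2 signal (y axis) of all probe sets of IFIH1, TLR3, EIF2AK2 and MAVS on the 6 arrays (x axis: transfection; blue, KHOS; orange, U-2OS; line style and marker, probe set; dotted line, the signal limit of 6.64). The KHOS points lie above the U-2OS points except for TLR3 242667_at, and the dim probe sets 1555464_at, 206271_at and 231829_at have their highest point in KHOS with CDK11 siRNA.

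Of the transcription factors, IRF3, which is present before infection in most cells, was near the signal limit. Its only probe set (202621_at) read 6.64, 7.01 and 6.34 in KHOS, against 6.08, 5.87 and 4.78 in U-2OS. The lines did not overlap, though the lowest KHOS and the highest U-2OS array were close. IRF3 was 1.47-fold higher in untransfected KHOS cells.

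IRF7, which amplifies interferon production, was read by 1 probe set (208436_s_at). It read 8.52, 9.66 and 9.53 in KHOS, against 2.60, 3.07 and 2.62 in U-2OS. All U-2OS values were near the median of all probe sets and far below the signal limit, and all KHOS values were above it. The difference in untransfected cells was 60.6-fold, a size that rests on U-2OS signals below the limit. A difference of more than 6 log2 units between the means of the lines was found with KHOS higher in 1.28% of all 8878 genes tested.

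IRF9, the DNA-binding subunit that acts behind the interferon receptor, read 8.997, 10.15 and 10.24 in KHOS, against 7.31, 7.74 and 7.94 in U-2OS (203882_at). KHOS was above U-2OS on all arrays, by 3.23-fold in untransfected cells. IRF9 was also the member whose 2 siRNA arrays were both above the untransfected array in both lines by more than 0.4. A further probe set is annotated to RNF31 and IRF9 together (220788_s_at), was not read as IRF9, and gave 6.69, 7.36 and 6.95 in KHOS, against 5.75, 5.79 and 6.37 in U-2OS.

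**Figure D2:**
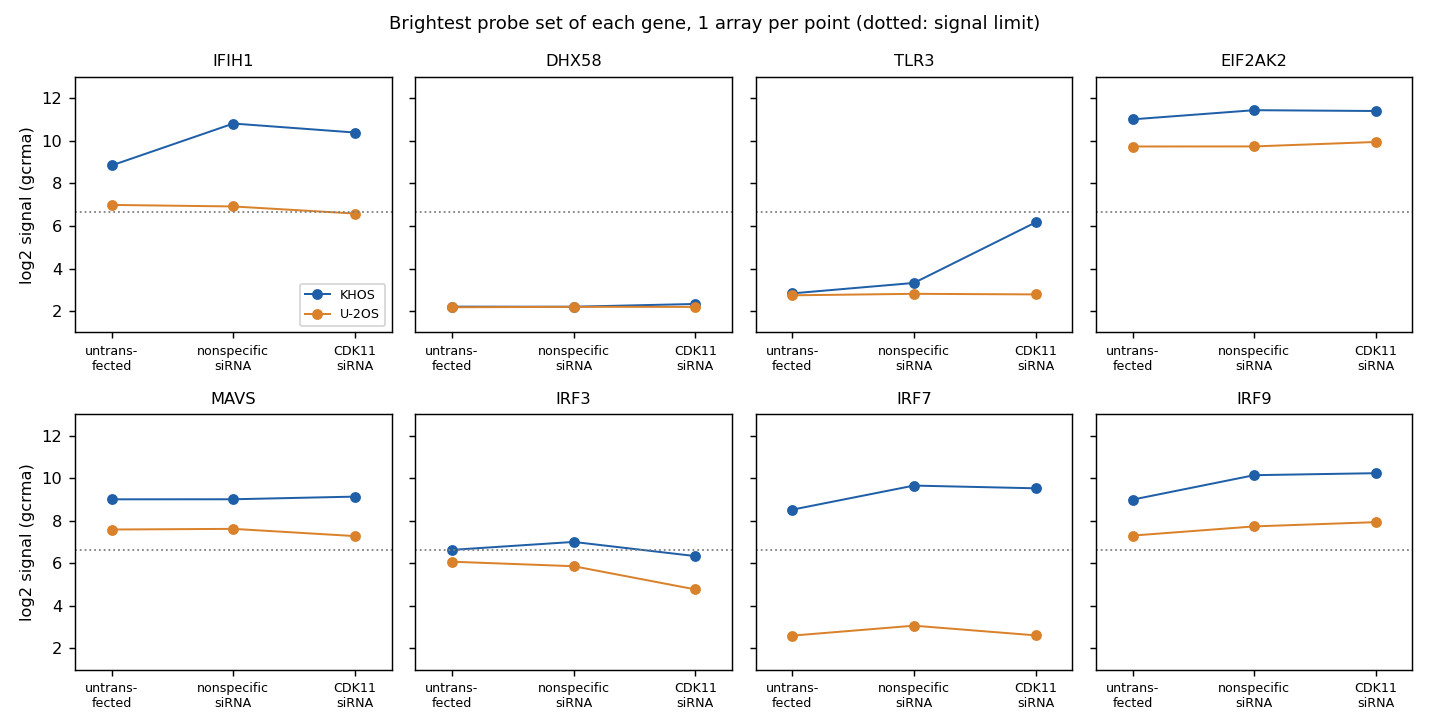
Log2 signal (y axis) of the brightest probe set of each measured gene on the 6 arrays (x axis: transfection; blue, KHOS; orange, U-2OS; 1 array per point; dotted line, the signal limit of 6.64). IRF7 shows the widest gap between the lines, with U-2OS between 2.60 and 3.07, and DHX58 lies near 2.2 on all arrays.

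The levels in the lines were compared with limma over the 3 transfections, with transfection as a block, 1 probe set per gene and Benjamini-Hochberg adjustment over 8878 genes. All 6 members tested were lower in U-2OS at an adjusted p below 0.05, of which 4 were above the signal limit in both lines. IRF3 and IRF7 had no U-2OS array above it, as was so for 9.55% of all genes tested, and had entered the test through KHOS. Over all genes, 71.7% passed in either direction and 38.3% were lower in U-2OS, so that a pass by itself was common. Centring the arrays on the median of their kept probe sets would move every difference between the lines by 0.15, and all 6 members still passed. The log2 difference of U-2OS and KHOS was -6.47 (SE 0.21, limma adjusted p = 3.33e-05) for IRF7 and -3.19 (SE 0.44, limma adjusted p = 0.00247) for IFIH1. It was -2.13 (SE 0.17) for IRF9, -1.56 (SE 0.13) for MAVS, -1.48 (SE 0.12) for EIF2AK2 and -1.09 (SE 0.21) for IRF3, with limma adjusted p between 0.000428 and 0.00765. The median of the 6 members was -1.84 and that of all genes -0.07. Every KHOS array lay above every U-2OS array for 6 of 6 members and for 39.5% of all genes, and a mean difference above 1 log2 unit in favour of KHOS was found for 6 of 6 members and 20.2% of all genes, with IRF3 and IRF7 among the 6 both times. These 3 arrays per line are of 1 line each under different transfections, so that the p-values speak of these cell lines and of no other difference between them, and the SE of IFIH1 holds its response to siRNA. In the fit without a signal limit, TLR3 was lower in U-2OS by a log2 difference of -1.33 (limma adjusted p = 0.379) and DHX58 by -0.06 (limma adjusted p = 0.519), and neither passed.

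With siRNA of either kind, IFIH1, IRF9 and IRF7 were higher in KHOS by more than 1 log2 unit, as were 1.89% of all genes, EIF2AK2 was higher by less, and the mean of the 2 siRNA arrays differed from the untransfected array by under 0.1 for MAVS and IRF3. For nonspecific siRNA against untransfected KHOS cells, IFIH1 was 3.92-fold, IRF9 2.22-fold, IRF7 2.19-fold and EIF2AK2 1.35-fold higher. For CDK11 siRNA the same genes were 2.92-fold, 2.37-fold, 2.01-fold and 1.31-fold higher. In U-2OS the corresponding values for nonspecific siRNA were 0.952-fold, 1.35-fold, 1.38-fold and 1.003-fold, and for CDK11 siRNA 0.755-fold, 1.55-fold, 1.01-fold and 1.16-fold. The responses to both kinds of siRNA share the untransfected array of their line.

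Within a line there was 1 array per condition, and a difference was set against the SD of all 16397 probe sets above the signal limit, which gives no p-value. For nonspecific siRNA against untransfected KHOS cells, 1.51% of these probe sets lay beyond 3 SD in either direction and 1.0% above it. Of the members' 9 probe sets, 4 lay above it, with IFIH1 at 1.97 and 1.88 log2 units, IRF9 at 1.15 and IRF7 at 1.13, against a bound of 1.12. IRF9 and IRF7 were thus just beyond the bound, and the nearest member short of it was EIF2AK2 at 0.44 on 204211_x_at. For CDK11 siRNA against untransfected KHOS cells, 1.59% of all lay beyond 3 SD and the bound was 1.62. Only the dimmer IFIH1 probe set passed there, at 2.71, and the brightest one was at 1.55. The dimmer one (216020_at) was above the signal limit only on the KHOS array with CDK11 siRNA, at 6.75, and entered through it. Its pass for nonspecific siRNA compared arrays below the limit, at 4.04 and 5.92. In U-2OS no member passed for nonspecific siRNA, where 1.59% of all probe sets did. The brightest IFIH1 probe set differed there by -0.07 and the highest value of a member was 0.47, for IRF7.

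The siRNA response was also tested in limma with the 2 siRNA arrays of a line as samples of transfected cells, so that their spread holds any effect of CDK11 siRNA. In KHOS the log2 difference was 1.76 for IFIH1 (SE 0.27, limma unadjusted p = 0.00212, adjusted p = 0.296), 1.20 for IRF9 (SE 0.17, limma unadjusted p = 0.00158, adjusted p = 0.26) and 1.07 for IRF7 (SE 0.24, limma unadjusted p = 0.00998, adjusted p = 0.481). EIF2AK2 was at 0.41, MAVS at 0.06 and IRF3 at 0.04. None of the 6 passed after adjustment, and 3 had an unadjusted p below 0.05. Over all genes 1 passed (0.0113%), RTP4, a gene named here after its value was seen, and 662 had an unadjusted p below 0.05. In U-2OS the log2 difference was 0.53 for IRF9 (SE 0.17, limma adjusted p = 0.689), 0.24 for IRF7, 0.11 for EIF2AK2, -0.14 for MAVS, -0.24 for IFIH1 and -0.76 for IRF3. No member and 0.0% of all genes passed there, while 1 member and 576 genes had an unadjusted p below 0.05, and limma-trend, in which the variance prior follows the level, called 0 genes.

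The difference between the lines in this response was tested by the interaction term. It was largest for IFIH1, at -1.998 (SE 0.38, limma unadjusted p = 0.00497, adjusted p = 0.516), and its sign means a smaller response in U-2OS. IRF7 was at -0.83 (SE 0.34, limma adjusted p = 1), IRF3 at -0.80, IRF9 at -0.67 (SE 0.24, limma unadjusted p = 0.0451, adjusted p = 0.91), EIF2AK2 at -0.30 and MAVS at -0.20. The median of all genes was -0.02. For IRF3 and MAVS the KHOS response was near 0, at 0.04 and 0.06, and that in U-2OS was -0.76 and -0.14. Without the CDK11 siRNA array of U-2OS the term of IRF3 was -0.25. Of the 6 members, 2 had an unadjusted p below 0.05. None passed after adjustment, as was so for 0.0% of all 8878 genes, of which 475 had an unadjusted p below 0.05, and for 0 genes by limma-trend. A p above the threshold does not show that the lines responded alike. Over both lines together, IRF9 was at 0.86 (SE 0.18, limma adjusted p = 0.251) between siRNA of either kind and untransfected cells, IFIH1 at 0.76, IRF7 at 0.65 and EIF2AK2 at 0.26. Without the untransfected KHOS array these were 0.53, -0.24, 0.24 and 0.11, and without that of U-2OS 1.20, 1.76, 1.07 and 0.41. These repeat the responses of the other line given above, since the comparison then rests on that line alone. By limma 0.0% of all genes passed in this comparison, against 1235 at an unadjusted p below 0.05 and 35 genes, none of them a member, by limma-trend.

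**Figure D3:**
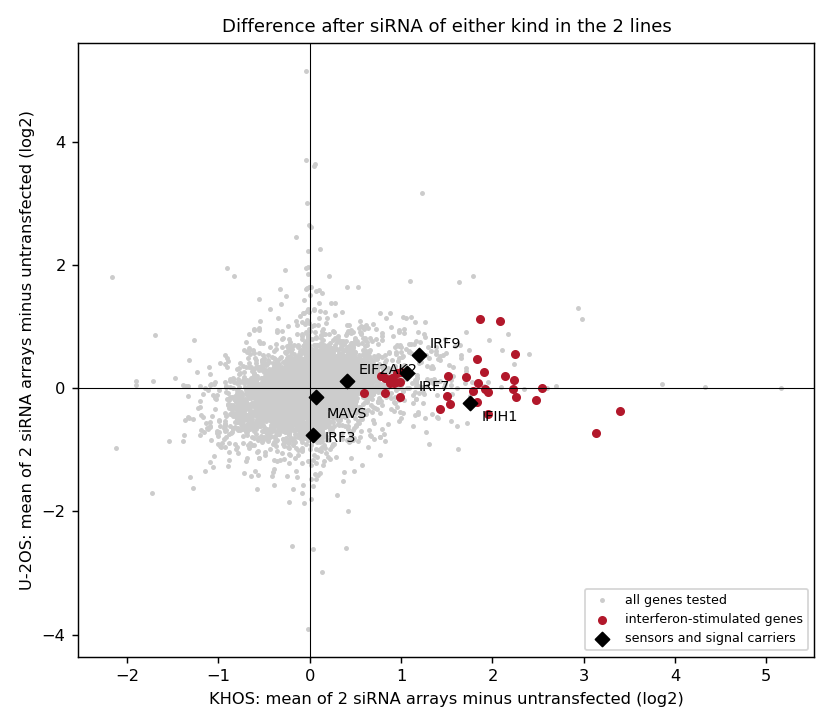
Log2 difference between the mean of the 2 siRNA arrays and the untransfected array in KHOS (x axis) and in U-2OS (y axis) for all 8878 genes tested (grey), 36 interferon-stimulated genes (red) and the 6 members above the signal limit (black). IFIH1 lies at 1.76 in KHOS and -0.24 in U-2OS, and the red points spread along the x axis.

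Both siRNA arrays were above the untransfected array for 5 of 6 members in KHOS, against 35.3% of all genes, and for 3 of 6 in U-2OS, against 36.0%. The 5 members in KHOS were all but IRF3. IFIH1 was the only member with both siRNA arrays above in KHOS and both below in U-2OS, as 8.5% of all genes were. Those in U-2OS were EIF2AK2, IRF7 and IRF9, with the lowest difference at 0.00 for EIF2AK2.

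Between CDK11 siRNA and nonspecific siRNA, IRF3 had the largest difference in U-2OS among the members' probe sets with an array above the signal limit. In KHOS the largest was that of 216020_at of IFIH1, higher by 0.83 log2 units, and IRF3 was lower by a log2 difference of -0.67. As a fold, IRF3 was 0.469-fold in U-2OS and 0.630-fold in KHOS. All U-2OS values of IRF3 were below the limit. In KHOS only the nonspecific siRNA array was above it, at 7.01, and the fall was read from that array. In U-2OS the difference of -1.09 lay just beyond the 3 SD bound of -1.07, as 1.87% of all probe sets did, and against untransfected cells it was -1.30 with a bound of -1.30 and 1.62% of all beyond. In KHOS no probe set of a member above the signal limit passed, against 1.38% of all. Below the limit, the differences in KHOS were 2.85 for 206271_at of TLR3, 2.39 for 1555464_at of IFIH1 and 1.20 for 231829_at of MAVS, and in U-2OS they were between -0.07 and -0.03. Over both lines the log2 difference of IRF3 was -0.88 (SE 0.26, limma unadjusted p = 0.0205, adjusted p = 0.286). That of the other members above the limit, each on its brightest probe set, lay between -0.38 and 0.15. By limma 0.0% of all genes passed, while 1205 had an unadjusted p below 0.05 and limma-trend called 119. The knockdown itself was seen on the brightest probe set annotated to CDK11A and CDK11B. It kept 20.6% of the nonspecific siRNA signal in KHOS and 15.95% in U-2OS. The other such probe set above the limit kept 20.0% and 14.8%. Those below the limit kept 27.0% to 40.1% in KHOS and 22.4% to 86.6% in U-2OS.

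The genes whose pattern over the 6 arrays was nearest to that of a member were found by the root mean square of the log2 differences after each gene was centred on its own mean, over 8878 genes. For IFIH1 they were HELZ2 (0.302), CXCL11 (0.303) and APOL6 (0.321), and for IRF9 they were EPB41L4A-AS1 (0.160), SP110 (0.161) and IFITM3 (0.18). SP110 and IFITM3 are interferon-stimulated genes of the list used below, and CXCL11 encodes a chemokine induced by interferon. For IRF7 they were SIPA1L2 (0.200), SYNM (0.260) and CEMIP (0.290). Those of EIF2AK2 were PSENEN (0.0678), BDP1 (0.0853) and CCDC66 (0.0868), those of MAVS were GUSBP14 (0.0611), FARS2 (0.0667) and C11orf54 (0.0709), and those of IRF3 were AVL9 (0.130), FECH (0.153) and FAM219B (0.172). The arrays fall into 2 lines, so that a shared gap between the lines makes up much of such a likeness.

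Around the members, the RNA sensors and helpers held 15 genes above the signal limit, of which 11 were lower and 1, PRKRA, higher in U-2OS by limma. Beside this count, and those of the lists below, 71.7% of all genes passed in either direction and 38.3% were lower. OAS2, DDX60, OAS1 and OASL were among the 11, with log2 differences (U-2OS minus KHOS, as for the lists that follow) of -7.28, -4.57, -5.65 and -5.71. OAS1 and OAS2 encode synthases of the second messenger that activates RNase L. RIGI, the cytoplasmic sensor that shares MAVS with IFIH1, read 9.08, 10.80 and 10.66 in KHOS, against 7.12, 7.43 and 8.18 in U-2OS. It was above the untransfected array on all siRNA arrays, and the lines did not overlap. The median response of the list to siRNA of either kind was 0.80 in KHOS and 0.10 in U-2OS, and 5 of the 15 genes, OAS1, OAS2, OASL and DDX60 among them, had no U-2OS array above the limit. With the arrays centred on their medians, 10 genes of the list were lower.

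The adaptors and kinases that work beside MAVS were mixed, with 6 of 13 lower and 2 higher in U-2OS, where 38.3% of all genes were lower. With the arrays centred on their medians 4 were lower, since TANK and TICAM1 no longer passed (limma adjusted p = 0.0702 and 0.108). FADD (-1.39), TRAF3 (-0.85) and IKBKB (-0.70) were lower and RELA (1.02), a subunit of NF-kappa B, and TRAF6 (0.57) were higher. Their median response was -0.01 in KHOS and 0.04 in U-2OS. STING1, the adaptor for cytoplasmic DNA, read 3.12 to 3.15 on all arrays and was below the signal limit in both lines.

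Of the other interferon regulatory factors, 4 were above the limit. IRF4 (-5.50), IRF1 (-2.68) and IRF2 (-1.37) were lower in U-2OS and IRF8 was higher (3.52), so that IRF8 ran against IRF7. IRF1 and IRF4 had no U-2OS array above the limit and IRF8 no KHOS array. IRF1, itself induced by interferon, read 6.34, 7.81 and 7.69 in KHOS, against 4.28, 4.89 and 4.62 in U-2OS. The median response of the 4 genes was 0.57 in KHOS and 0.07 in U-2OS.

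The interferons are the products of the path from IFIH1 and MAVS to IRF3 and IRF7, and 2 of the 13 with a named probe set were above the limit. IFNB1 read 6.50, 8.25 and 8.56 in KHOS, against 2.34, 2.39 and 2.37 in U-2OS. It was above the untransfected array on both siRNA arrays of KHOS. Its U-2OS values were below the median of all probe sets, so that no response could be read there, and the log2 difference between the lines of -5.40 (limma adjusted p = 0.000386) is set against background. IFNL2 read 4.14, 6.98 and 7.26 in KHOS, against 2.65, 3.94 and 3.58 in U-2OS, with the siRNA arrays of both lines above the untransfected one, though no U-2OS array reached the limit. Its log2 difference between the lines was -2.74 (limma adjusted p = 0.00378). The interaction was -1.87 for IFNB1 (limma adjusted p = 0.452) and -1.86 for IFNL2 (limma adjusted p = 0.513), and neither passed, with the U-2OS side of both taken below the limit. The interferon alpha genes lay between 2.09 and 2.55 on all arrays.

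The receptor side was mixed. IFNAR1, a chain of the receptor for type I interferons, read 7.40 to 7.55 over all arrays with overlapping lines. Of 7 receptor and JAK kinase genes above the limit, IL10RB (1.99) was higher and IFNGR2 (-0.74) and JAK1 (-0.37) were lower in U-2OS, and the median response was 0.05 in KHOS and 0.06 in U-2OS. IFNGR2 and JAK1 no longer passed when the arrays were centred on their medians (limma adjusted p = 0.0503 and 0.14).

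**Figure D4:**
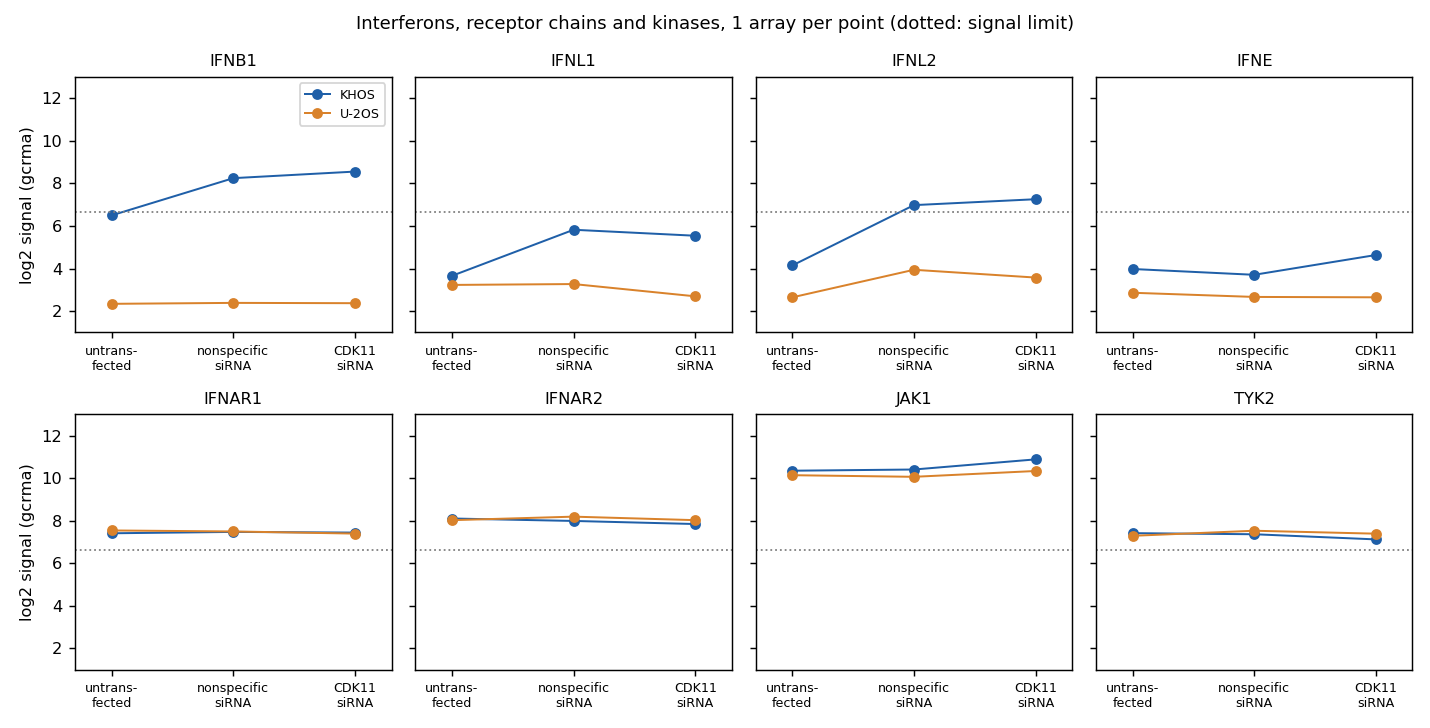
Log2 signal (y axis) of 4 interferons (upper row) and of receptor chains and kinases (lower row) on the 6 arrays (x axis: transfection; blue, KHOS; orange, U-2OS; 1 array per point; dotted line, the signal limit of 6.64). IFNB1 reads 6.50 to 8.56 in KHOS and 2.34 to 2.39 in U-2OS, while the lines overlap for IFNAR1.

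Of 15 inhibitors of sensing and signalling above the limit, 6 were higher and 5 lower in U-2OS, or 8 and 5 with the arrays centred, and 3 had no U-2OS array above the limit. Since 71.7% of all genes passed in either direction, such a count by itself says little about the list. USP18, which damps signalling at the interferon receptor, read 7.26, 9.54 and 9.67 in KHOS, against 2.63, 2.65 and 2.59 in U-2OS. DNAJC3 (-2.48), an inhibitor of EIF2AK2, and SOCS3 (-1.55) were lower and CYLD (1.57) was higher. The list's median response was 0.10 in KHOS and -0.01 for U-2OS. Of 8 genes that share the eIF2 alpha step with EIF2AK2, 3 were higher in U-2OS, ATF4 (0.97), EIF2S1 (0.73) and DDIT3 (0.95), and PPP1R15A (-0.63) was lower, so that 1 of them was lower in U-2OS, as EIF2AK2 was. With the arrays centred, EIF2AK1 and EIF2AK3 passed as well (limma adjusted p = 0.0353 and 0.0469), which made 5 higher. Their median response was 0.14 in KHOS and 0.03 in U-2OS.

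Downstream, 36 interferon-stimulated genes were above the limit. Of these, 32 were lower and 1, LGALS3BP, higher in U-2OS by limma, or 31 and 2 with the arrays centred, and 38.3% of all genes were lower. On the U-2OS arrays 17, 17 and 16 of the 36 were above the limit, against 33, 36 and 36 in KHOS, and 19 had entered through KHOS alone. Of the 17 above the limit in both lines, 14 were lower in U-2OS. The median level was 9.35, 11.36 and 11.49 in KHOS, against 6.16, 6.15 and 6.43 in U-2OS. Both siRNA arrays were above the untransfected array for 36 of 36 genes in KHOS and 17 of 36 in U-2OS. The median response to siRNA of either kind was 1.81 in KHOS and 0.09 in U-2OS, and 24 genes in KHOS, where 1.89% of all genes did so, and 2 genes in U-2OS, where 0.969% did so, were above 1 log2 unit. Over the 17 genes above the limit in both lines the medians were 0.95 in KHOS and 0.09 in U-2OS, while the other 19 were read below the limit in U-2OS.

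Over the 3 transfections, IFITM1 (-9.80), IFI44L (-8.37), IFIT3 (-6.86) and IFI6 (-4.15) had the smallest adjusted p between the lines. RSAD2 (3.40), TRIM22 (3.14), MX1 (2.55) and MX2 (2.48), which encode antiviral proteins, had the largest response in KHOS. In U-2OS ISG20 (1.13), IFIT3 (1.09), TRIM22 (-0.74) and IFI44L (0.54) had the largest difference in size, of which ISG20 was the only one above the limit in U-2OS. The interaction had a median of -1.64 over the list and -0.02 over all genes, with 0 genes past limma or limma-trend. By limma 31 of 36 genes of the list and 475 of all 8878 had an unadjusted p below 0.05. For 19 of the 36 the U-2OS side was read below the limit, where a response could hardly be seen. This median and this count thus rest in part on genes that entered through KHOS.

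**Figure D5:**
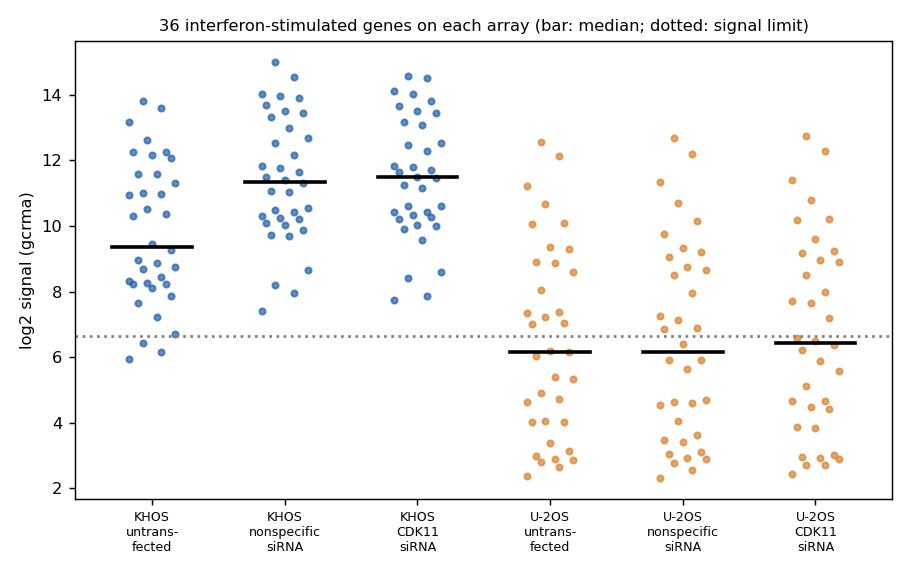
Log2 signal (y axis) of 36 interferon-stimulated genes on each of the 6 arrays (x axis; blue, KHOS; orange, U-2OS; points, genes; bars, medians; dotted line, the signal limit of 6.64). The median goes from 9.35 to 11.36 and 11.49 in KHOS and stays between 6.15 and 6.43 in U-2OS.

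The arrays themselves were alike, with 24.8% to 25.9% of probe sets above the signal limit. Of 11 housekeeping genes above the limit, 3 (GAPDH, PGK1 and TFRC) were higher and 3 (GUSB, HPRT1 and SDHA) lower in U-2OS. With the arrays centred, ACTB and TBP were higher as well (limma adjusted p = 0.0256 and 0.0433), 5 in all. Their median response was 0.00 in KHOS and -0.08 in U-2OS. None of the 9 blood cell markers with a named probe set was above the limit, with values of 1.81 to 3.22 and summed levels of 23.8 to 24.2 in KHOS and 23.6 to 24.4 in U-2OS. Of the 8 bone and mesenchymal markers with a probe set, RUNX2, COL1A1, SPARC and VIM were above the limit, while ALPL, COL1A2, SPP1 and SP7 were below it. In U-2OS RUNX2 read 7.03, 4.39 and 5.68, so that only the untransfected array of that line was above the limit. Only 1 of 6 epithelial markers was above the limit, EPCAM at 8.81 to 8.997 in KHOS and 5.15 to 5.89 in U-2OS, and its part in the differences between the lines was not tested.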

How the data were processed

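The deposited values are log2 signals that the authors made with gcrma, a method that corrects for background, sets the arrays to common quantiles and combines the probes of a set. All 54675 probe sets are in the table, from before the authors' filters, and 6 arrays leave little precision. Nothing says that a condition was repeated, so p-values measure the spread between these arrays.

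Probe sets were named from the platform annotation, updated through the RefSeq table of GRCh38.p14: 41097 had 1 symbol, 1801 several and 11777 none, and only the first were used for genes. Probe sets with no array above 6.64, the log2 of 100, were dropped. In R 4.3.3, limma 3.58.1 took the brightest kept probe set of each of 8878 genes for a two-sided fit with Benjamini-Hochberg adjustment at 0.05. The line comparison and the transfection comparisons came from 1 fit with line and transfection as blocks, and the responses of each line and their interaction from a fit of line, siRNA and both, each with 2 residual degrees of freedom. Within a line, differences between 2 arrays were set against 3 SD of all kept probe sets, the rule of the study's methods. The fits were tested on simulated data.

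The lists were RNA sensors and helpers, sensor adaptors and kinases, interferon regulatory factors, interferons, receptors and JAK kinases, inhibitors, eIF2 alpha kinases and phosphatases, interferon-stimulated genes, bone, blood and epithelial markers, and housekeeping. Members and lists were chosen with earlier results of these data known. Named genes are all members and, per list, up to 4 past limma with the smallest adjusted p, the 4 interferon-stimulated genes with the largest response in each line, and the 3 nearest patterns for each member with a range of at least 1 log2 unit. Levels by array of list genes, and the genes that fall outside this rule, were chosen with values seen. Promoters of DHX58, IRF3 and IRF7 were not used here. Python 3.11.15, pandas 2.3.3, numpy 2.4.6 and matplotlib 3.10.9 were used.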

Additional observations from a re-analysis of the deposited data

Results flagged for a closer look

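IFIH1 differed between the lines in its response to siRNA by an interaction of -1.998 log2 units. Both siRNA arrays were above the untransfected array in KHOS (10.82 and 10.40 against 8.85) and both were below it in U-2OS (6.92 and 6.59 against 6.99). By limma the interaction had an adjusted p of 0.516, and 8.5% of all genes had both siRNA arrays above in KHOS and below in U-2OS. On the dimmer probe set 216020_at the U-2OS arrays were not below, at 3.06 and 2.64 against 2.62.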

How the results depend on the processing

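The 6 members stayed lower in U-2OS and past limma under all alternatives in which they were tested. These alternatives were not independent. With transfection as a block, leaving out the KHOS or the U-2OS array of a transfection gave the same difference between the lines. IRF3 was tested in 11 of the 12 alternatives, since a higher signal limit left it out. It had the highest limma adjusted p, at 0.0461 when no signal limit was set. Without the replicate block, here the transfection each pair of arrays shares, 5923 genes passed between the lines against 6362, IRF3 was at -1.09 (limma adjusted p = 0.0345), and no call of a member or a transfection comparison changed. With limma-trend, 35 genes passed for siRNA of either kind, 5 for nonspecific siRNA against untransfected, 119 for CDK11 siRNA against nonspecific siRNA and 279 for CDK11 siRNA against untransfected, against 0 each. None of the 35 was a member, and whether members were among the genes of the other comparisons was not examined. When single arrays were left out, the counts of these comparisons were 0 to 2, 0 to 1, 0 to 0 and 0 to 1, the values above 0 arising without the untransfected array of KHOS or of U-2OS. The 1 gene in the KHOS response became 0 with no signal limit, with limma-trend and without any single siRNA array (0 to 0). Signs turned for values near 0 or resting on 1 array. With single arrays left out, IFIH1 over both lines ranged from -0.24, without the untransfected KHOS array, to 1.76, IRF3 over both lines from -0.76 to 0.039, without the untransfected U-2OS array, and IRF3 in the KHOS response from -0.29, without the nonspecific siRNA array, to 0.37. Over both lines, a value without an untransfected array is the response of the other line alone. MAVS over both lines ranged from -0.15 to 0.075 and was above 0 at 0.024, 0.065 and 0.075 without the nonspecific siRNA array of KHOS, the untransfected and the CDK11 siRNA array of U-2OS. The median response of the interferon-stimulated genes in KHOS was 1.70 to 1.80 when a siRNA array was left out, and that in U-2OS 0.15 without the nonspecific siRNA array and -0.05 without the CDK11 siRNA array. For CDK11 against nonspecific siRNA in KHOS, 3 probe sets of members lay beyond 3 SD with no signal limit and 1 with the untransfected array as control, against 0. The 3 were 1555464_at of IFIH1, 206271_at of TLR3 and 231829_at of MAVS. The causes were not tested.

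With 1 array per line and condition the lines serve as replicates, and the effect of siRNA within a line has no replicate of its own. Sizes and directions of a siRNA response are not safe near or below the signal limit. This holds for TLR3 and DHX58, and in U-2OS for IRF3, IRF7, the interferons and 19 of the 36 interferon-stimulated genes. In KHOS, 206271_at of TLR3 was highest with CDK11 siRNA, at 6.17, and 239587_at of TLR3 with nonspecific siRNA, at 3.98. Every KHOS array lay above every U-2OS array on 16 of the 17 probe sets of members. For DHX58, which was not detectable, no direction is read.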
